A study of Homo sapiens with 8 samples.

Results

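Histone genes were described at the levels of mRNA (RNA-Seq) and of ribosome-protected fragments (RPF, Ribo-Seq) in HEK293T cells, an established human embryonic kidney cell line, with and without the exonuclease XRN1. Members were the rows of the count table whose gene symbol begins with HIST1H, HIST2H, HIST3H, HIST4H, H2AF, H3F3, H1F0 or H1FX, and 24 of the 10105 genes met this rule. Of these, 14 carry a HIST symbol (hereafter HIST genes) and 10 do not (H1F0, H1FX, H2AFV, H2AFX, H2AFY, H2AFY2, H2AFZ, H3F3A, H3F3AP4 and H3F3B). The groups were WT cells and XRN1-null cells, a line made from HEK293T by CRISPR/Cas9 editing of XRN1. The sources used here name no other treatment of the cells, and both lines grew for 24 h on dishes of 15 cm before harvest. Each genotype had 2 biological replicates in each assay, which gave 8 libraries. The sources used here do not state whether the XRN1-null line is 1 clone, so a difference between the lines and an effect of the deletion cannot be told apart.

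Histones package DNA in nucleosomes, which hold the core histones H2A, H2B, H3 and H4, while the linker histone H1 binds the DNA between them. Most HIST genes are replication-dependent: they lie in clusters, lack introns and are transcribed in S phase, and their mRNAs end in a conserved stem-loop, bound by the protein SLBP, in place of a poly(A) tail. Variant histones such as H2AFZ, H2AFV and the H3F3 proteins are made throughout the cell cycle from mRNAs that carry a poly(A) tail, and some mRNAs of HIST genes are known to be polyadenylated as well. XRN1 is the main cytoplasmic exonuclease that degrades decapped RNA from its 5′ end.

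The RNA-Seq libraries held 33757487 to 38145433 counts and the Ribo-Seq libraries 1921641 to 4399542. RNA-Seq used a kit whose standard protocol selects RNA by its poly(A) tail. The paper states that fragments of cleaved mRNAs without such a tail were missed by RNA-Seq. Ribo-Seq sequences fragments left after nuclease digestion, without a selection by the tail. Levels are given as CPM (counts per 1 M counts of TMM-scaled totals), or as CPM per kb of coding sequence where genes are compared with each other. Differences are log2 fold changes with standard errors from edgeR's quasi-likelihood test, and a gene was called at a false discovery rate (FDR, Benjamini-Hochberg over 10105 genes) below 0.005. With 2 libraries a group, the tests measure the spread between these libraries, and the biological coefficient of variation was 6.02% for RNA-Seq and 9.84% for Ribo-Seq. The edited gene itself had 42.1 ± 10.9 CPM of footprints in WT cells (SD, n = 2) against 20.5 ± 2.96 CPM in XRN1-null cells, while its mRNA was higher in the latter. Of 12 markers of blood, fibroblast and endothelial cells, 1 was in the table (COL1A1, 13.9 to 15.4 CPM of mRNA in WT and 36.8 to 37.3 CPM in XRN1-null cells). Its part in the results was not tested.

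The 14 HIST genes, 10 of them on chromosome 6 and 4 on chromosome 1, each had a reference transcript with a single exon, and some have further annotated transcripts in a longer span. The stem-loop consensus, a motif of 16 nt, was searched on the gene's strand in the 150 nt that follow the stop codon, and over the whole gene for pseudogenes. It was found in 15 members, namely the 14 HIST genes and H2AFX, the H2A variant phosphorylated at DNA breaks. Among all coding genes of the annotation the motif was present in 70 of 20176 (0.347%), and among the other genes of the table it was present in 1 of 9799 (0.0102%), BTBD10. The 15 members shared 6 different forms of the motif. The sites below show each form once, plus HIST1H2AC, whose values the results turn on, in capitals for the stem-loop and in lower case for its flanks (5′ to 3′, GRCh37).
HIST1H1C, chr6:26055967-26055992, minus strand: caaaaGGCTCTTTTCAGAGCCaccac
HIST1H2AC, chr6:26124892-26124917, plus strand: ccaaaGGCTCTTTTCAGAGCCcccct
HIST1H2BK, chr6:27114140-27114165, minus strand: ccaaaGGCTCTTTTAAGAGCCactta
HIST1H2AG, chr6:27101289-27101314, plus strand: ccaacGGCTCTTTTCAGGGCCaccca
HIST1H3E, chr6:26225819-26225844, plus strand: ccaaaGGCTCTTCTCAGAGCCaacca
HIST1H4H, chr6:26285354-26285379, minus strand: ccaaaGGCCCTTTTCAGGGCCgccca
H2AFX, chr11:118965603-118965628, minus strand: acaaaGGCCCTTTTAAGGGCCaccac

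The form printed for HIST1H1C occurred in 7 members and that of HIST1H2BK in 3, HIST1H2BD, HIST1H2BJ and HIST1H2BK, which all encode H2B. The HIST1H2AG form was shared with HIST2H2BC, and the forms of HIST1H3E, HIST1H4H and H2AFX each occurred once. In the 14 coding genes with the motif, the stem-loop began 26 to 56 nt after the stop codon, within the 3′ untranslated part of that transcript's only exon. The deposited gene width reached well past the stem-loop in some genes, by 1728 nt in HIST2H2BE, 1025 nt in H2AFX, 397 nt in HIST1H2BK and 380 nt in HIST1H2BD. In 10 other HIST genes the width, set from the annotated transcript start, ended between 30 nt before and 33 nt after the last base of the stem-loop, and in HIST2H2BC it ended 111 nt after that base. It ended before the last base in HIST1H4H, HIST1H3E, HIST3H2A and HIST1H3H.

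The table held a minority of the HIST genes. RefSeq lists 71 coding genes with such a symbol, current or former, and 13 of them (18.3%) were members: 1 of 6 H1 genes, 3 of 17 H2A genes, 6 of 18 H2B genes, 2 of 15 H3 genes and 1 of 15 H4 genes. The 14th HIST member, HIST2H2BC, is annotated as a pseudogene of the H2B type. The others and H2AFJ were not analysed here.

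Histone genes resemble each other closely, so a read can fit several of them. The share of 29-nt windows of a member's coding sequence (the transcript for both pseudogenes) that also occur in another annotated gene was computed as a measure of this, with 29 nt being a footprint length the authors kept. It was 0% for H1F0, H1FX, H2AFY, H2AFY2 and HIST1H4H. It was 1.30% for HIST1H1C and 4.96% each for HIST1H3E and HIST1H3H. These 8 members can be read with the least doubt. It was 10.1% for HIST1H2AC and 11.5% for HIST3H2A, and 17.8% to 56.5% for 8 further members. It was 60.9% for HIST3H2BB, 74.8% for HIST2H2BE and 87.5% for HIST1H2BK, and 100% for HIST2H2BC, H3F3A and H3F3AP4. H3F3AP4 is a processed pseudogene of H3F3A, which encodes the replacement form of H3, and their counts differed by 0 to 5 in every library, so they cannot be treated as separate measurements. How the authors' counting placed reads with several matches is not given in the sources used here, and values of members with a high share are uncertain between copies. In addition, HIST1H4H, HIST1H2BD, H1FX, H2AFY, H2AFY2, H2AFZ, H3F3A and H3F3B overlap an annotated gene on the opposite strand, HIST1H2AC, HIST1H2BD, HIST1H3E, HIST2H2BC and H3F3AP4 lie within a longer annotated gene on their own strand, and HIST3H2A, HIST3H2BB, HIST1H2BD and H3F3B span a smaller one on theirs. Whether the counting used strand is not given either, so reads of these genes and of their overlapping partners cannot be told apart, which bears most on mRNAs with few counts such as HIST1H4H.

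HIST genes made up 0.00964% to 0.0123% of the RNA-Seq counts and 1.52% to 2.22% of the Ribo-Seq counts. Their footprints were therefore abundant while their mRNAs were rare among the reads, and the ratio of RPF to mRNA was examined per gene within each genotype. It was fitted as the assay term over 4 libraries and is relative to the bulk of genes, whose median was -0.03 (log2) in both genotypes. In WT cells, 17 of the 24 members were called higher, against 18.2% of all genes, and 1 was called lower, against 23.4%. The 17 were the 14 HIST genes, H2AFX, H3F3A and H3F3AP4.

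**Figure D1:**
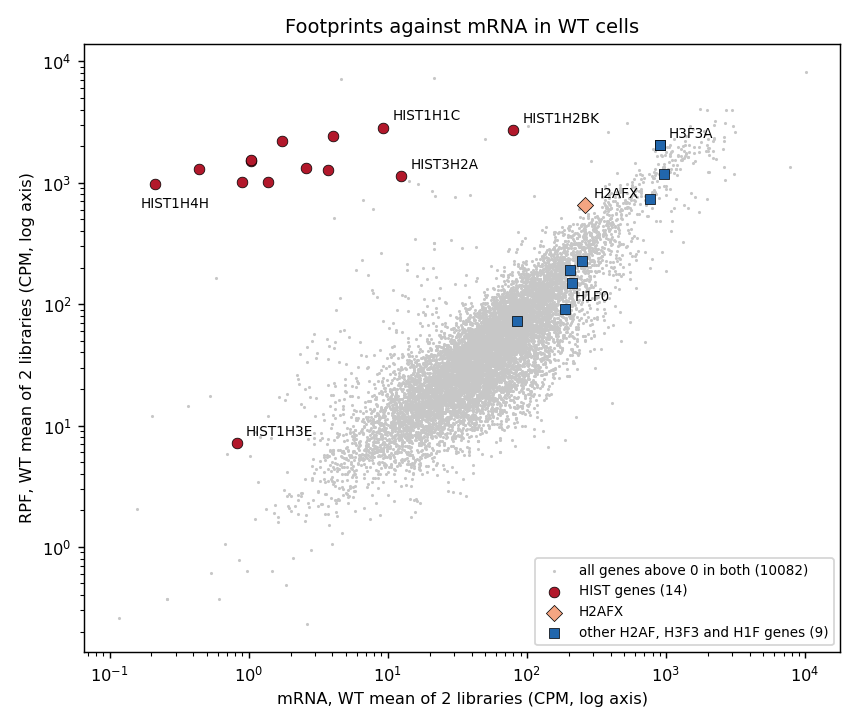
Footprints against mRNA in WT cells, both in CPM as means of 2 libraries on log axes, for 10082 genes above 0 in both assays (grey), the 14 HIST genes (red circles), H2AFX (diamond) and the 9 other members (blue squares). The HIST genes lie above the cloud of genes, 13 of them between 972 and 2847 CPM of footprints, while the blue squares lie within it.

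HIST1H1C, which encodes a linker histone, was the only H1 gene with a HIST symbol. Its mRNA was at 9.37 and 9.17 CPM in the WT libraries and its footprints at 2902 and 2792 CPM. The log2 ratio was 8.51 ± 0.170 (SE, FDR = 5.01e-10, edgeR). This gene shared few windows with other genes, and its 301 to 391 RNA-Seq counts per library made it the best measured of the unique HIST genes at the mRNA level.

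Of the H2A genes, HIST1H2AG had 0.875 and 1.19 CPM of mRNA and 1690 and 1339 CPM of footprints in WT cells, with a log2 ratio of 10.76 ± 0.248. HIST1H2AC had 1.55 and 1.19 CPM of mRNA and 1035 and 982 CPM of footprints, with a log2 ratio of 9.76 ± 0.216. HIST3H2A was at 12.4 and 12.6 CPM of mRNA and 1232 and 1050 CPM of footprints, with a log2 ratio of 6.76 ± 0.178. In each of the 3 genes the footprint CPM exceeded the mRNA CPM in both replicates by a wide margin.

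The 7 H2B genes, HIST2H2BC included, had log2 ratios from 5.33 to 11.76. HIST1H2BJ was at 1.72 and 1.74 CPM of mRNA and at 2289 and 2150 CPM of footprints, a log2 ratio of 10.57 ± 0.193. HIST1H2BK stood apart by its mRNA, 90.2 FPKM in WT cells (mean, n = 2) beside 0.942 to 4.44 FPKM for the other H2B genes. It was at 83.1 and 76.9 CPM of mRNA, with 2799 and 2631 CPM of footprints and the lowest H2B ratio of 5.33 ± 0.152. It is also 1 of the genes whose deposited width runs past the stem-loop. HIST1H2BO had the highest H2B ratio, 11.76 ± 0.217, on 15 RNA-Seq counts in each WT library.

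The H3 genes differed from each other. HIST1H3H was at 1.19 and 0.883 CPM of mRNA and at 1643 and 1459 CPM of footprints, with a log2 ratio of 10.78 ± 0.228. HIST1H3E had a similar mRNA level, 0.847 and 0.792 CPM, but only 7.29 and 7.12 CPM of footprints, 14 and 31 counts. Its log2 ratio of 3.36 ± 0.371 was the lowest among the HIST genes, though still called. Both genes have a stem-loop, in different forms, and each shares 4.96% of its windows with other genes.

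The only H4 gene, HIST1H4H, had the highest ratio of all 10105 genes in WT cells, 12.31 ± 0.366. Its footprints were at 1053 and 891 CPM. Its mRNA rested on 13 and 2 counts in the WT libraries, and the log2 ratio ranged from 11.57 to 14.00 when each WT library was left out in turn. HIST1H2BO ranged from 11.70 to 11.84 in the fits that left out a WT library. The size and the first place of the HIST1H4H ratio are therefore poorly determined, while its direction was the same in every fit.

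Ranked by this ratio in WT cells, HIST genes took 8 of the first 10 places and 11 of the first 20, and the last of them, HIST1H3E, was at place 80 of 10105. In XRN1-null cells they took 7 of the first 10 and 11 of the first 20. The filter on the table bears on this ranking. Genes were kept by the authors above an FPKM (fragments per kb and 1 M counts) of 2, and on the deposited counts every member was above 2 in every Ribo-Seq library, but 7 of the 14 HIST genes were not in every RNA-Seq library. Of the 14, 0 were at or below 2 in every RNA-Seq library. Since most HIST genes were not analysed here, the number of HIST genes called is no measure of the family. The other 7 (HIST1H1C, HIST1H2AC, HIST1H2BD, HIST1H2BJ, HIST1H2BK, HIST2H2BC and HIST3H2A) had over 2 FPKM in all 8 libraries, and their log2 ratios were 5.33 to 10.57. A high rate of translation and a low recovery of mRNA without a poly(A) tail cannot be told apart in this ratio, since tails were not measured.

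Members without a HIST symbol had 2392 to 34832 RNA-Seq counts per library, so their ratios rest on well measured mRNA. H2AFX, the only one with a stem-loop, was at 261 and 260 CPM of mRNA and at 713 and 604 CPM of footprints in WT cells, with a log2 ratio of 1.58 ± 0.143 (FDR = 1.03e-05, edgeR). H3F3A was at 952 and 855 CPM of mRNA and at 2014 and 2053 CPM of footprints, with a log2 ratio of 1.42 ± 0.130 (FDR = 1.08e-05, edgeR). H3F3A has no stem-loop in the searched window, and all of its windows recur elsewhere.

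H2AFZ, the main gene of the H2A variant found at promoters, had 984 and 963 CPM of mRNA and 1281 and 1072 CPM of footprints, and its log2 ratio of 0.52 ± 0.137 missed the threshold (FDR = 0.00762, edgeR). It passed with the replicate number as a block (FDR = 3.88e-08, edgeR), by DESeq2 (FDR = 0.00391) and without WT Ribo-Seq replicate 2 (0.70, FDR = 0.000651, edgeR). H3F3B, which encodes the same protein as H3F3A, had a log2 ratio of 0.18 ± 0.135, with 792 and 747 CPM of mRNA and 782 and 688 CPM of footprints. The linker histone gene H1FX was at 0.16, the macroH2A genes H2AFY and H2AFY2 at 0.13 and 0.03, and H2AFV, the second gene of the promoter variant, at -0.25. H3F3B, H1FX, H2AFY, H2AFY2 and H2AFV did not pass the test in WT cells.

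H1F0, the linker histone known from cells that leave the cycle, was the only member called lower. Its mRNA was at 180 and 199 CPM and its footprints at 91.7 and 91.7 CPM, a log2 ratio of -0.80 ± 0.139 (FDR = 0.000661, edgeR). The call was lost without WT RNA-Seq replicate 2, with a log2 ratio of -0.73.

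In XRN1-null cells the ratio was called higher for 19 members, against 34.0% of all genes, and lower for 1, again H1F0, against 36.5%. The 14 HIST genes were called higher there too, with log2 ratios of 3.62 to 10.76. The lowest was again HIST1H3E. H2AFZ at 0.90 and H3F3B at 0.40 were called in addition to H2AFX at 1.24 and H3F3A at 1.76. The call of H3F3B did not hold on library totals (0.085, FDR = 0.112, edgeR). The biological coefficient of variation was 3.27% in this fit and 9.73% in WT cells, so smaller ratios passed in XRN1-null cells and the counts of calls of the 2 genotypes cannot be compared. Whether a ratio differed between the genotypes was tested as TE below.

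Footprints per kb of coding sequence allow the members to be set side by side, since footprints lie on coding sequence. The median of 9821 coding genes was 26.8 CPM per kb in WT cells. HIST1H2BK had 7125 ± 312 (SD, n = 2), the 4th highest of these genes, followed by HIST2H2BE with 6382 ± 570 and HIST1H2BJ with 5825 ± 257. H3F3A had 4948 ± 66.0 and HIST1H1C 4434 ± 121. Both libraries of HIST1H2BK lay above both of HIST2H2BE, while the means differed by less than the sum of their SDs, and both genes share most of their windows with other genes.

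HIST1H2AG, HIST1H3H, HIST1H2BO, HIST1H2BD and HIST1H4H lay between 3116 and 3854 CPM per kb. Their spreads overlap in part, for example 3775 ± 317 for HIST1H3H and 3854 ± 632 for HIST1H2AG, which do not differ beyond it. H2AFZ followed with 3040 ± 383, and HIST3H2A, HIST3H2BB and HIST1H2AC had 2903, 2682 and 2566 CPM per kb. H3F3B had 1788 ± 163 and H2AFX 1523 ± 178. The variants H2AFV, H1FX, H2AFY and H1F0 followed with 388, 298, 204 and 157 CPM per kb, H2AFY2 had 64.9, and HIST1H3E had 17.5, the only member under the median of all coding genes. Except for HIST1H3E, the coding HIST genes thus all had more footprints per kb than H2AFX, H3F3B or the H1 variants.

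**Figure D2:**
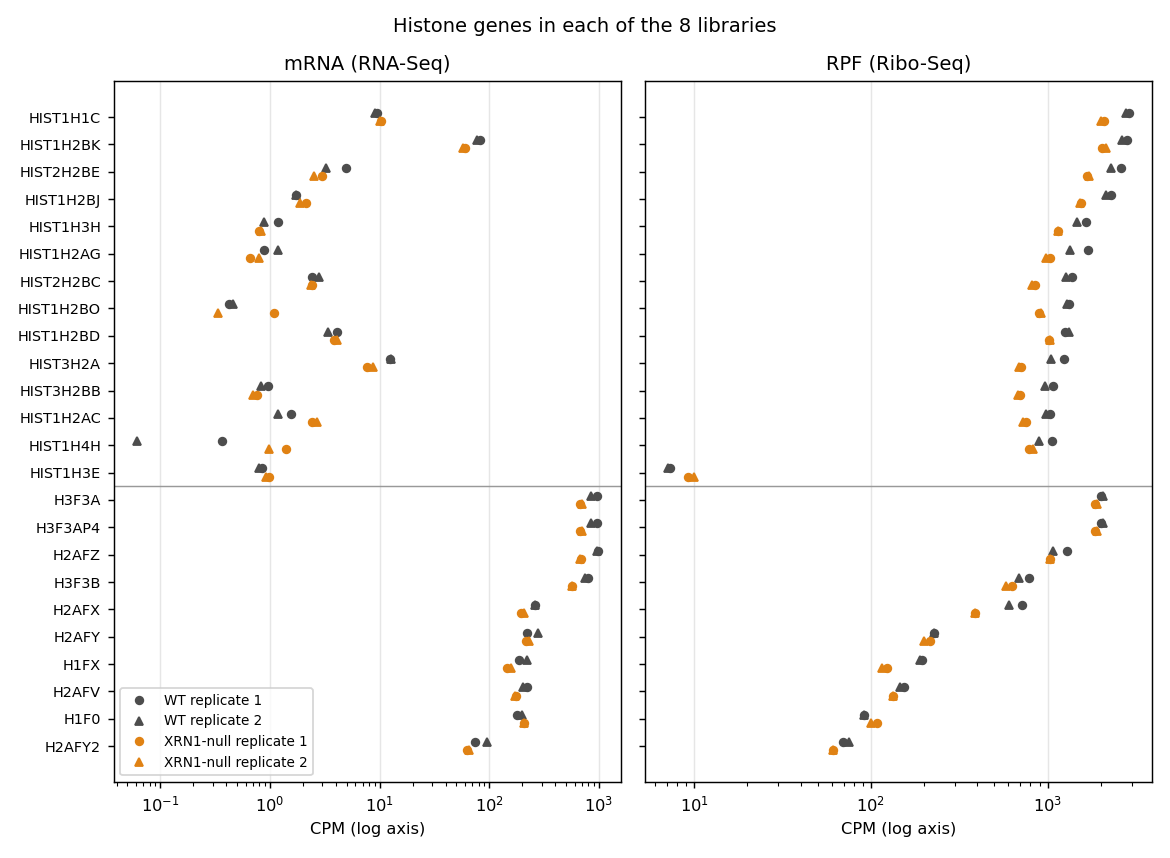
CPM of each member in each of the 8 libraries on log axes, mRNA on the left and footprints on the right, with WT in grey, XRN1-null in orange, and circles and triangles for replicates 1 and 2. In the footprint panel 22 members are lower in both XRN1-null libraries than in both WT libraries, and H1F0 and HIST1H3E are higher.

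At the mRNA level in XRN1-null against WT cells, 8 members fell, against 23.2% of all genes called lower, and 0 rose, against 22.9% called higher. The 8 were H1FX, H2AFX, H2AFZ, H3F3A, H3F3AP4, H3F3B, HIST1H2BK and HIST3H2A, and the counts of H3F3A and H3F3AP4 are nearly identical. By edgeR, 13 members had an unadjusted p below 0.05, against 69.9% of all genes, and DESeq2 called 1 member higher, against 25.6% of the genes with an adjusted p. A share of 8 in 24 is not far above the background. The calls also depended on single libraries, as 0 members were called lower without XRN1-null RNA-Seq replicate 1 (11.0% of all genes) and 1, HIST3H2A, without replicate 2 (10.9%). The log2 changes in these 2 fits stayed close to those over all libraries, at -0.53 and -0.51 for H2AFZ and -0.44 and -0.45 for H3F3B. Without WT RNA-Seq replicate 1 or replicate 2, 11 members were called lower, where 30.8% and 33.5% of all genes were.

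H2AFZ mRNA fell from 984 and 963 CPM in WT to 685 and 675 CPM in XRN1-null cells, a log2 change of -0.52 ± 0.0581 (FDR = 0.000192, edgeR). H3F3B fell from 792 and 747 to 563 and 566 CPM (-0.45 ± 0.0620, FDR = 0.000534, edgeR). H3F3A fell from 952 and 855 to 672 and 695 CPM (-0.40 ± 0.0712, FDR = 0.00172, edgeR). These 3 mRNAs had 1028, 269 and 851 FPKM in WT cells (means, n = 2), more than any other member apart from H3F3AP4, and their groups did not overlap.

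H2AFX fell from 261 and 260 to 195 and 210 CPM (-0.37 ± 0.0653, FDR = 0.00180, edgeR). H1FX fell from 186 and 221 to 144 and 157 CPM (-0.43 ± 0.0933, FDR = 0.00437, edgeR), a call that did not hold on library totals (-0.38, FDR = 0.00684, edgeR). H2AFV was lower without passing, at 219 and 202 CPM against 177 and 173 (-0.26 ± 0.0673, FDR = 0.00962, edgeR), and so was H2AFY2, at 74.6 and 95.0 CPM against 63.2 and 64.8 (-0.40 ± 0.110, FDR = 0.0126, edgeR). Both passed with the replicate number as a block (FDR = 0.00423 and 0.000554, edgeR) and without either WT RNA-Seq library, and H2AFY2 also by DESeq2 (FDR = 0.00122). Without WT RNA-Seq replicate 1 the log2 difference of H2AFY2 was -0.55, and without replicate 2 it was -0.22. H2AFY overlapped between the groups, at 221 and 276 CPM against 217 and 232, and was called only without WT RNA-Seq replicate 1 (-0.27, FDR = 3.67e-06, edgeR). H1F0 was at 180 and 199 CPM in WT and 206 and 208 CPM in XRN1-null cells, a log2 difference of 0.13 ± 0.0709 that missed the threshold and passed without WT RNA-Seq replicate 2 (0.20, FDR = 0.000202, edgeR).

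Of the HIST genes, 2 fell. HIST3H2A went from 12.4 and 12.6 to 7.69 and 8.63 CPM (-0.61 ± 0.106, FDR = 0.00155, edgeR) and HIST1H2BK from 83.1 and 76.9 to 59.8 and 57.7 CPM (-0.45 ± 0.0687, FDR = 0.000884, edgeR). They are the HIST genes with the most RNA-Seq counts in the WT libraries. The other 12 had 2 to 391 counts per RNA-Seq library, and their log2 differences ranged from -0.58 to 2.42. The median was -0.02 over the HIST genes and -0.40 over the 10 other members, beside -0.01 over all genes. Some HIST genes were above 2 FPKM in RNA-Seq only in libraries of the group in which they are higher. No contrast between the classes is read from these medians.

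HIST1H4H and HIST1H2AC had higher values in both XRN1-null libraries, on few counts. HIST1H4H had 13 and 2 counts in the WT libraries against 53 and 38 in the XRN1-null libraries, a log2 difference of 2.42 ± 0.567 (FDR = 0.00667, edgeR) that ranged from 1.68 to 4.23 when each library was left out, and it passed the threshold by DESeq2, with the replicate number as a block (FDR = 0.000957, edgeR) and without either WT library. In RNA-Seq this gene was above the authors' FPKM minimum of 2 only in the XRN1-null libraries, at 0.981 and 0.163 FPKM in WT against 3.75 and 2.61, so a filter met through the group in which it is high favours this direction, and neither the difference nor its passes can be read apart from the filter. HIST1H2AC had 55 and 39 counts against 92 and 104, a log2 difference of 0.89 ± 0.220 (FDR = 0.00833, edgeR) that passed without WT RNA-Seq replicate 1 (1.12, FDR = 0.00145, edgeR). HIST1H1C, with more counts, was at 9.37 and 9.17 CPM in WT and 10.3 and 10.04 CPM in XRN1-null cells (0.14 ± 0.10, FDR = 0.260, edgeR). Between the genotypes, 14 members did not overlap and were lower in XRN1-null cells, against 43.7% of all genes, 6 were higher without overlap, against 41.0%, and 4 overlapped. These counts include members that were above 2 FPKM in RNA-Seq only in libraries of the group in which they are higher, HIST1H3E and HIST1H4H in XRN1-null cells and HIST1H2AG, HIST1H3H, HIST2H2BE and HIST3H2BB in WT cells, so nothing is read from them about the family.

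**Figure D3:**
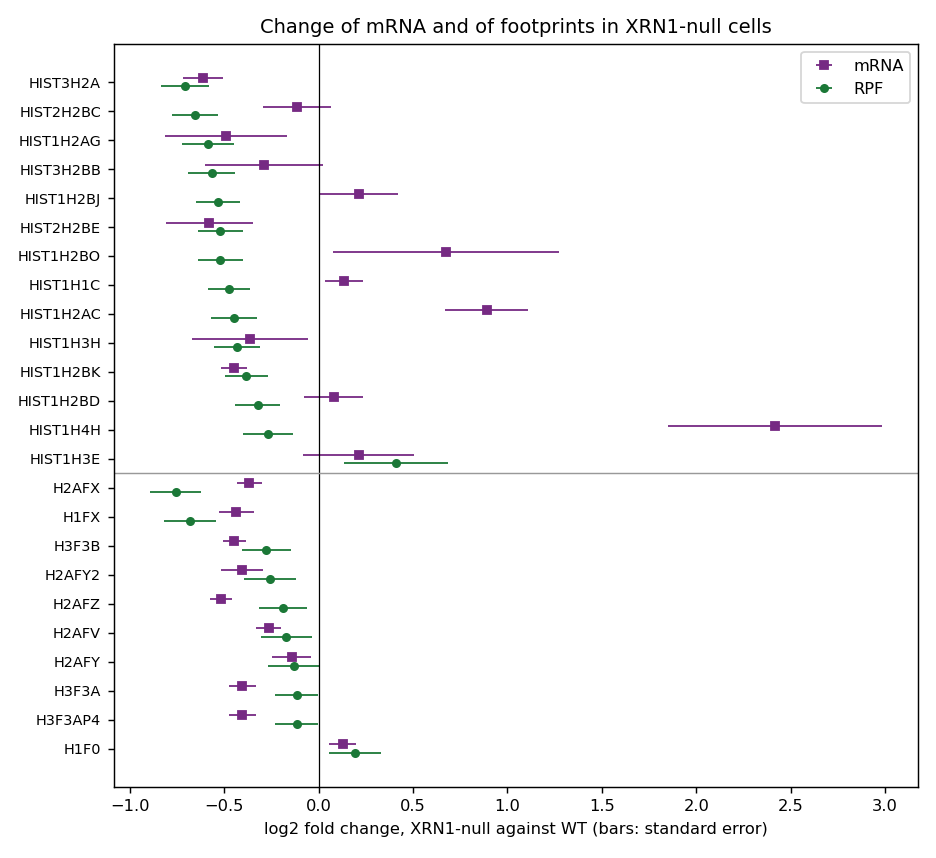
Log2 fold change of mRNA (purple squares) and of footprints (green circles) in XRN1-null against WT cells for each member, with standard errors, HIST genes above the line and other members below it. The footprint changes of 13 HIST genes lie between -0.71 and -0.27, while their mRNA changes spread from -0.61 to 2.42.

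At the footprint level, 0 members passed the FDR threshold of 0.005 by edgeR, against 0.633% of all genes called higher and 1.14% called lower. An unadjusted p below 0.05 was found for 14 members, against 33.0% of all genes. At an FDR below 0.05, 13 members were lower, against 8.38% of all genes, and these were 11 HIST genes, H1FX and H2AFX. At 0.005, 3 members were called lower by DESeq2 (1.25% of the genes with an adjusted p) and on library totals (1.62% of all genes), H2AFX, HIST3H2A and HIST2H2BC. With the replicate number as a block, edgeR called 9 lower, against 6.58% of all genes, namely these 3 (FDR = 2.18e-05, 5.79e-05 and 0.000197), H1FX (0.000247), HIST1H2AG, HIST1H2BJ, HIST1H2BO, HIST2H2BE and HIST3H2BB (0.00122 to 0.00405). The count also rested on single WT libraries, with 14 members called lower without WT Ribo-Seq replicate 1, against 7.00% of all genes, and 17 without replicate 2, against 10.8%.

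The libraries themselves did not overlap for any member. In 22 of 24 members both XRN1-null libraries had less CPM of footprints than both WT libraries, against 32.3% of all genes. The other 2, H1F0 and HIST1H3E, were higher in both, against 32.1%. The median log2 difference was -0.50 over the HIST genes and -0.18 over the 10 other members, beside -0.00333 over all genes. Footprints of near-identical members are not independent, so these counts hold fewer separate measurements than members.

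HIST1H1C, nearly free of shared windows, was at 2902 and 2792 CPM of footprints in WT and 2080 and 2012 CPM in XRN1-null cells (-0.48 ± 0.112, FDR = 0.0170, edgeR). HIST3H2A was at 1232 and 1050 CPM against 703 and 693 (-0.71 ± 0.129, FDR = 0.00606, edgeR). HIST1H3H was at 1643 and 1459 CPM against 1150 and 1150 (-0.43 ± 0.121, FDR = 0.0346, edgeR). The lowest WT value lay above the highest XRN1-null value in each of these H1, H2A and H3 genes.

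HIST1H4H, with no shared window, was at 1053 and 891 CPM of footprints in WT and 784 and 829 CPM in XRN1-null cells, and this difference of -0.27 ± 0.131 had an FDR of 0.175 by edgeR. It was -0.14 without WT Ribo-Seq replicate 1 and -0.37, a call, without replicate 2 (FDR = 4.01e-05, edgeR). HIST1H2AG was at 1690 and 1339 CPM against 1036 and 981 (-0.59 ± 0.137, FDR = 0.0167, edgeR). HIST1H2BJ was at 2289 and 2150 CPM against 1537 and 1532 (-0.53 ± 0.115, FDR = 0.0123, edgeR). The 7 H2B members were at -0.66 to -0.32, with HIST2H2BC lowest, and HIST1H2AC was at -0.45. HIST1H3E, the H3 gene with few footprints, was at 7.29 and 7.12 CPM in WT and 9.19 and 9.99 CPM in XRN1-null cells, on 14 to 37 counts (0.41 ± 0.274, FDR = 0.318, edgeR).

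H2AFX and H1FX, neither with a HIST symbol, had footprint differences about as large as that of HIST3H2A. H2AFX was at 713 and 604 CPM in WT and 389 and 390 CPM in XRN1-null cells (-0.76 ± 0.135, FDR = 0.00595, edgeR). H1FX was at 194 and 189 CPM against 123 and 116 (-0.68 ± 0.137, FDR = 0.00914, edgeR). Both had lower mRNA as well, by a smaller log2 change.

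The remaining variants had smaller footprint differences. H3F3A was at 2014 and 2053 CPM in WT and 1861 and 1893 CPM in XRN1-null cells (-0.12 ± 0.113), and H3F3B at 782 and 688 CPM against 629 and 583 (-0.28 ± 0.131). H2AFZ was at 1281 and 1072 CPM against 1033 and 1031 (-0.19 ± 0.129). For these 3 genes, whose mRNA fell, the footprint difference did not pass over all libraries, and a p that misses the threshold does not show that footprints were alike. Without WT Ribo-Seq replicate 2, H2AFZ (-0.30, FDR = 0.00116, edgeR) and H3F3B (-0.35, FDR = 0.000171, edgeR) were called lower, and without replicate 1 they were at -0.050 and -0.18. H2AFV, H2AFY and H2AFY2 were at -0.17, -0.13 and -0.26, with 155 and 145 CPM against 133 and 133, 228 and 228 against 216 and 200, and 69.8 and 75.3 against 60.8 and 61.2. H1F0 was at 91.7 and 91.7 CPM in WT and 109 and 101 CPM in XRN1-null cells (0.19 ± 0.137, FDR = 0.348, edgeR).

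A change of the footprint to mRNA ratio between the genotypes is given here as a change in translational efficiency (TE). It was fitted over the 8 libraries as an interaction term. Translation and the recovery of mRNA without a poly(A) tail cannot be told apart in it, since tails were not measured. TE fell for 2 members, against 1.78% of all genes, and rose for 0, against 0.0495%. HIST1H2AC had a log2 TE change of -1.34 ± 0.195 (FDR = 0.00165, edgeR), from 1035 and 982 CPM of footprints over 1.55 and 1.19 CPM of mRNA in WT to 753 and 724 over 2.43 and 2.67 in XRN1-null cells. HIST1H4H had a log2 TE change of -2.67 ± 0.461 (FDR = 0.00475, edgeR), from 1053 and 891 CPM over 0.367 and 0.0609 in WT to 784 and 829 over 1.40 and 0.976 in XRN1-null cells. In both genes the mRNA was higher and the footprints lower in each XRN1-null library, and in both the mRNA rests on few counts. The TE change of HIST1H4H includes the mRNA difference described above, for which the FPKM minimum was met in RNA-Seq only by the XRN1-null libraries, whereas HIST1H2AC was above it in all 8 libraries.

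Both calls depended on single libraries: neither held without WT RNA-Seq replicate 2 (-1.16 for HIST1H2AC and -1.94 for HIST1H4H), without XRN1-null RNA-Seq replicate 1 (-1.40 and -2.39) or replicate 2 (-1.27 and -2.90), or without XRN1-null Ribo-Seq replicate 1 (-1.37 and -2.63) or replicate 2 (-1.31 and -2.71). HIST1H4H was -4.42 without WT RNA-Seq replicate 1. With a minimum of 10 counts in every library, HIST1H4H was not tested. At unadjusted p below 0.05, 11 members differed in TE by edgeR, against 23.3% of all genes. HIST1H1C was at -0.61 ± 0.125 (FDR = 0.0120, edgeR) and HIST1H2BJ at -0.75 ± 0.169 (FDR = 0.0195, edgeR), the other 2 members with an FDR below 0.05, against 6.46% of all genes lower at that level. HIST1H1C passed by DESeq2 (FDR = 0.000107). With same-numbered libraries of both assays within a genotype as a block, HIST1H1C (FDR = 0.000328, edgeR) and HIST1H2BJ (FDR = 0.00283, edgeR) passed. The labels do not say that such libraries share a culture.

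The median TE change was -0.34 over the HIST genes and 0.12 over the 10 other members, beside 0.01 over all genes. The HIST median includes members above 2 FPKM in RNA-Seq only in libraries of the group with their higher mRNA. Nothing is read from it about the class. H3F3A was at 0.29, H2AFZ at 0.33 and H2AFX at -0.39, and none of these passed. In H2AFZ the ratio of footprint CPM to mRNA CPM was 1.30 and 1.11 in the WT replicates against 1.51 and 1.53 in the XRN1-null replicates. In H2AFX it was 2.73 and 2.32 against 1.99 and 1.86. These variants therefore stood on opposite sides of 0 in TE without a call for either.

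Genes that process or degrade histone mRNA were examined as a list of 35, of which 33 were in the table. At the mRNA level 8 rose, 6 fell and 19 did not pass, against 22.9% of all genes called higher and 23.2% called lower, a background that also applies to the lists that follow. At the footprint level none of the 33 passed by edgeR, against 0.633% of all genes called higher and 1.14% called lower. In TE 1 fell, SMG1 (-1.02), a kinase of nonsense-mediated decay, against 1.78% of all genes called lower. These shares apply to the lists that follow as well. SLBP, which binds the stem-loop, fell in mRNA from 118.3 and 120.5 CPM to 90.0 and 92.3 CPM (-0.39 ± 0.0614, FDR = 0.000988, edgeR), and its footprints were at 99.0 and 103 CPM against 84.2 and 90.2 (-0.22, FDR = 0.287, edgeR). LSM10 and LSM11, subunits of the particle that cleaves the 3′ end, moved in opposite directions, at -0.52 and 0.37. ERI1, an exonuclease that trims the stem-loop, rose by 0.65, and NPAT, a coactivator of HIST gene transcription, was at -0.25 (FDR = 0.0165, edgeR).

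Others of the list that rose in mRNA were ZCCHC6 (1.81), a uridylyltransferase of histone mRNA decay, the helicase UPF1 (1.23), SRRT (1.20), SMG1 (1.02), the cap-binding subunit NCBP1 (0.66) and the cleavage factor subunit CPSF1 (0.33). Those that fell were CCNE1 (-0.64) and CDK2 (-0.39), the cyclin and kinase that drive entry into S phase, the polymerase PAPD5 (-0.48) and MIF4GD (-0.35), an SLBP partner in translation. The list's median was 0.04 in mRNA and 0.12 in footprints.

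Of 28 chaperones and assembly factors of histones, all in the table, 9 rose and 3 fell in mRNA, and none passed in footprints by edgeR. In TE 1 of the 28 fell, TONSL (-1.83), against 1.78% of all genes called lower. TONSL, a reader of new H4, rose most in mRNA (2.23), ATRX rose by 1.19, and HIRA, UBN2 and CABIN1, which deposit the replacement H3, rose by 0.45, 0.68 and 0.63. HJURP, MMS22L and EP400 rose by 0.83, 0.79 and 0.70. ASF1B (-0.77), NAP1L1 (-0.39) and RBBP4 (-0.33) fell.

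Since synthesis of replication-dependent histones follows S phase, genes of the cell cycle were set beside them. Of 24 genes of S phase, 5 rose in mRNA (POLA1, MCM5, DTL, CDC6 and CDC45) and 4 fell, among them GINS2, CCNE1 and TYMS, with a median of 0.27. In footprints 1 of the 24 fell, GINS2 (-0.87), against 1.14% of all genes called lower, and the median was 0.22. Of 18 genes of G2 and M phase, 7 rose and 2 fell in mRNA, none passed in footprints by edgeR, and the median in footprints was 0.28. Of the S phase genes, 5 had a log2 footprint difference below 0 and 19 above 0. The medians of these lists do not measure the share of cells in a phase. The part of cell cycle distribution in the histone values was not tested.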

How the data were processed

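RNA-Seq and Ribo-Seq of WT and XRN1-null HEK293T cells were analysed from the raw counts per gene that the authors deposited. According to their methods, ribosomal RNA reads were removed with Bowtie2, the rest mapped on hg19 with TopHat2, and QuasR gave the reads per gene. Genes with an FPKM over 2 were kept. 2 further deposited tables hold the authors' own comparisons and were not used. Samples were grouped by their labels.

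Counts were tested with edgeR 4.0.16 in R 4.3.3 (quasi-likelihood test, TMM within each assay, or over 4 libraries for the ratios), with Benjamini-Hochberg adjustment over 10105 genes and an FDR below 0.005. To give a standard error, each log2 fold change was divided by the root of its F statistic. Each assay was fitted with genotype as the only term, TE with assay, genotype and their interaction, and the ratio within a genotype with assay as the only term. No gene was removed. FPKM are the CPM on TMM-scaled totals per kb of deposited gene width, except in the check of the FPKM filter, which used unscaled library totals.

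The members, the gene lists and the rule for named genes were chosen with earlier results of these data known. Values per library are given for each variant, for the gene of each histone type with the highest WT footprint FPKM and for members past the threshold in mRNA, footprints or TE. Of list genes, SLBP, NPAT, LSM10, LSM11 and ERI1 and those past the threshold are named, apart from a few that are not reported here. Other genes of the text (HIST1H3E, HIST1H2BO and members given with their near copies or ratios) were chosen after their values were seen.

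Gene models came from GENCODE release 44 mapped to GRCh37, which has the coordinates of hg19, and all 24 members were matched. Sites were read with Python 3.11.15 and pysam 0.24.0. On simulated counts for 10105 genes, genes changed by a log2 of 1 were recovered in 100% for mRNA, 69% for footprints and 67.2% for TE. Alternatives were RLE factors, library totals, a minimum of 10 counts, DESeq2 1.42.0, an FDR of 0.05, replicate blocks, each library left out, members with mostly unique windows, and, added after seeing the data, the members without H3F3AP4.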

Additional observations from a re-analysis of the deposited data

Results flagged for a closer look

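The ratio of RPF to mRNA differed between the genotypes for 2 members by the test of the interaction itself. HIST1H2AC had a log2 TE change of -1.34 and HIST1H4H one of -2.67 in XRN1-null against WT cells, both with an FDR below 0.005 by edgeR. Across the fits that leave out 1 library, the values ranged from -1.57 to -1.16 for HIST1H2AC and from -4.42 to -1.94 for HIST1H4H. The mRNA of these genes had 39 to 104 and 2 to 53 counts per RNA-Seq library, against 1987 to 4276 and 2022 to 3879 footprint counts. In RNA-Seq, HIST1H4H was above the FPKM minimum of 2 only in the XRN1-null libraries (3.75 and 2.61, against 0.981 and 0.163 in WT), so its difference cannot be read apart from that filter. Whether the poly(A) tail of either mRNA differed between the genotypes was not tested. Reads of genes that overlap them in the annotation, on the same strand for HIST1H2AC and on the opposite strand for HIST1H4H, cannot be told apart from their own.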

How the results depend on the processing

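Depth limits the HIST genes at the mRNA level (2 to 2943 counts per library) more than at the footprint level (14 to 12154). With 1 library left in a group, that library is assumed to vary like the other group. At the mRNA level, members called higher were 1 by DESeq2 (25.6% of genes with an adjusted p), 1 with the replicate block (28.3% of all genes), 2 at an FDR of 0.05 (32.8%) and 0 to 2 without 1 library (16.2% to 33.7%). Those called lower were 0 to 11 without 1 library (10.9% to 33.5%), and the HIST median was 0.039 on library totals and -0.23 to 0.032 without 1 library. Members with lower footprints were 3 on library totals (1.62%), 3 by DESeq2 (1.25%), 9 with the replicate block (6.58%), 13 at an FDR of 0.05 (8.38%) and 0 to 17 without 1 library (0.713% to 10.8%), where the HIST median was -0.52 to -0.41. Members with lower TE were 1 at a minimum of 10 counts (2.09%), since HIST1H4H was then not tested, and 4 at an FDR of 0.05 (6.46%). With same-numbered libraries of both assays within a genotype as a block they were 4 (4.30% of all genes), where HIST1H1C and HIST1H2BJ were gained. Without 1 library, the HIST median of TE was -0.44 to -0.21. HIST1H2BO, not called over all libraries, was at -1.81 without XRN1-null RNA-Seq replicate 2. Its RNA-Seq FPKM was above 2 only in XRN1-null replicate 1 (2.32), the library this fit keeps.

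For the ratios, the set with mostly unique windows leaves out the 7 members that share most of their windows, so its counts cover fewer members. In WT cells, 11 of this set were called higher, against 18.2% of all genes. The HIST median in WT was 9.38 on library totals, 9.45 at a minimum of 10 counts, 10.16 with unique windows and 9.45 to 9.89 without 1 library. In XRN1-null cells, 12 of the set with mostly unique windows were called higher, against 34.0% of all genes. Members called lower there were 3 on library totals (49.8% of all genes), and the HIST median was 8.84 on library totals and 9.09 with unique windows. Library totals moved the median of all genes in these ratios to -0.26 in WT and -0.34 in XRN1-null cells. The median of the members without a HIST symbol was then -0.058 and -0.00187, against 0.17 and 0.32, and was 0.19 with unique windows in XRN1-null cells. On library totals the ratio in WT changed sign for H1FX (-0.069), H2AFY (-0.10), H2AFY2 (-0.20) and H3F3B (-0.047), that in XRN1-null cells for H2AFY (-0.12) and H2AFY2 (-0.089), and the TE change of H2AFY was -0.027, or -0.012 at a minimum of 10 counts. Other causes were not tested.

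Without 1 library, values that changed sign ranged from -0.27 to 0.024 for H2AFY, -0.040 to 0.24 for HIST1H2BD and -0.39 to 1.29 for HIST1H2BO in mRNA. In TE they ranged from -0.00779 to 0.12 for H1F0, -0.15 to 0.14 for H2AFY, -0.044 to 0.28 for H2AFY2, -0.32 to 0.093 for HIST1H2AG, -0.014 to 0.12 for HIST1H2BK, -0.32 to 0.12 for HIST1H3H, -0.30 to 0.32 for HIST2H2BE and -0.19 to 0.030 for HIST3H2A. In the ratio they ranged from -0.017 to 0.28 for H2AFY and -0.13 to 0.20 for H2AFY2 in WT, and from -0.097 to 0.029 for H1FX in XRN1-null cells.

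Whether the replicate numbers pair the libraries could not be settled: deviations of same-numbered libraries of both genotypes correlated by 0.190 in RNA-Seq, 0.0803 in Ribo-Seq and 0.0766 in TE, those of both assays by 0.355 in WT and 0.0326 in XRN1-null cells, and the labels name no shared batch. The replicate block called 9 members lower in footprints, against 6.58% of all genes. The block of same-numbered libraries within a genotype called 4 lower in TE, against 4.30%. Without H3F3AP4, members called were 7 lower in mRNA, 16 higher in the ratio in WT and 18 higher in that in XRN1-null cells.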
